A study of Mus musculus with 18 samples.

Results

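The genes described here are the 5 stefin A genes Stfa1, Stfa2, Stfa2l1, Stfa3 and BC100530, the cystatins Cstb, Cst3 and Cst6, and Fetub. They were chosen by gene symbol and make up 9 of the 23951 genes in the FPKM table (fragments scaled to transcript length and library size). The choice was made with their higher level in psoriasis-like skin known, so every difference between DKO* and control cells is given for them as a description without a test.

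RNA was sequenced from 18 libraries of epidermal cells sorted from ear skin, 3 mice in each of 6 groups. DKO* mice carried floxed JunB and c-Jun alleles, K5-Cre-ERT and the mT/mG reporter, and K5-Cre-ERT is driven by a promoter of basal keratinocytes. Control mice (Co, mice 810, 825 and 828) carried K5-Cre-ERT and mT/mG with wild-type or heterozygous JunB and c-Jun. All mice were on a mixed background, were 8 weeks old, received 4 daily injections of 2 mg tamoxifen and were sorted at day 7. CD45- CD49f-high cells were split by CD34 into bulge hair follicle stem cells (HF-SC, CD34+) and basal keratinocytes (b-KC, CD34-). In DKO* mice 814, 815 and 817 both populations were further split into mutant GFP and non-mutant Tom cells, so the 4 DKO* populations came from the same 3 mice.

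The spacing of low FPKM values put the depth of a library at 16500000 to 26300000 reads. The targeted Jun had 836 to 1086 FPKM in the 6 Co libraries, 29.6 to 88.4 in the GFP libraries and 163 to 614 in the Tom libraries, so Tom cells were also below Co. Junb had 436 to 772 FPKM in Co, 37.2 to 77.5 in GFP and 208 to 402 in Tom. The surface marker gene Cd34 had 640 to 889 FPKM in Co HF-SCs and 1.12 to 2.04 in Co b-KCs, as the labels state. Krt14 was listed at 0 in 3 b-KC libraries and Krt15 in 1 HF-SC library, so an exact 0 in these files can be a failed estimate.

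Stefins and cystatins are small proteins that block papain-type cysteine proteases, the cathepsins, by wedging into the active site. Stefins such as stefin A and cystatin B act inside the cell, and stefin A is also cross-linked into the cornified envelope of keratinocytes. Cystatin C and cystatin M/E are secreted. Fetuin-B, the product of Fetub, is a secreted member of the superfamily that blocks some astacin-type metalloproteinases instead of cathepsins. Mice have several stefin A genes in a row where humans have a single one, and the mouse copies are also known from neutrophils. The transcription factors c-JUN and JUNB bind DNA as parts of the AP-1 complex.

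The 5 stefin A genes lie on chromosome 16 between bases 36156897 and 36455478 (NCBIM37), a stretch of 298582 bases. Stfa2l1 (36156897 to 36162034) and Stfa1 (36277213 to 36285457) are on the plus strand. BC100530 (36359468 to 36367834), Stfa2 (36404037 to 36421006) and Stfa3 (36450623 to 36455478) are on the minus strand. BC100530 overlaps Gm15845 and Stfa2 overlaps a U6 gene, both on the opposite strand, and the libraries carry no strand information. Outside the cluster, Fetub lies on chromosome 16 (22918455 to 22939839), Cstb on chromosome 10 (77888415 to 77890364), Cst3 on chromosome 2 (148697458 to 148701428) and Cst6 on chromosome 19 (5344705 to 5349574).

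How far the 5 rows can be told apart depends on their sequence. The coding stretch of 90 bases whose last base is number 101 from the end of each coding sequence is shown because it holds both near-identical pairs, with capitals at bases that differ from the single most common base of the 5 genes (GENCODE annotation of NCBIM37).
Stfa1: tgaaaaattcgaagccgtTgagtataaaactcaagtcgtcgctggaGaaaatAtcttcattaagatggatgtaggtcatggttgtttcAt
BC100530: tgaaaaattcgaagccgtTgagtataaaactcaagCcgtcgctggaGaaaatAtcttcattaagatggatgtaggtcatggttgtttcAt
Stfa3: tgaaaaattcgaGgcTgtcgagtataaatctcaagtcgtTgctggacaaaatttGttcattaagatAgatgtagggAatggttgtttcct
Stfa2: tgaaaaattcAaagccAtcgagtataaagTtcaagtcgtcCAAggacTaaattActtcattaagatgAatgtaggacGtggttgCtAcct
Stfa2l1: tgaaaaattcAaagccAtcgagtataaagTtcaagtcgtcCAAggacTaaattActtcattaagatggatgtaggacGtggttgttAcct

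Over 294 aligned coding bases, Stfa1 and BC100530 were 98.0% identical, and so were Stfa2 and Stfa2l1. All other pairs were 76.9% to 83.3% identical. Of the 51-base windows of each transcript, the length of the reads, 98.5% of Stfa1, 85.4% of BC100530 and 80.2% of both Stfa2 and Stfa2l1 matched another place in the cluster within the 2 mismatches that the alignment allowed. For Stfa3 this share was 5.5%. Exact matches elsewhere made up 39.8% of the windows of Stfa1, 33.7% of BC100530, 24.2% of Stfa2 and Stfa2l1, and 0.0% of Stfa3. The Stfa3 row can thus be read on its own, whereas reads of Stfa1 and BC100530, and of Stfa2 and Stfa2l1, can be exchanged within each pair. Cstb, Cst3, Cst6 and Fetub had no 51-base window in common with another coding gene.

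In control skin, the 5 stefin A genes summed to 5.33 to 13.2 FPKM in HF-SCs and 15.7 to 67.9 in b-KCs. Stfa3 had 6.04, 3.38 and 5.48 FPKM in Co HF-SCs and 17.5, 5.14 and 16.2 in Co b-KCs (mice 810, 825 and 828). BC100530 had 3.65, 1.70 and 5.40 FPKM in Co HF-SCs and 35.5, 9.31 and 25.1 in Co b-KCs. Mouse 825 had the lowest value in each of these groups. Stfa1 had 0.256 to 2.06 FPKM in Co HF-SCs and 1.27 to 13.8 in Co b-KCs, and Stfa2 had 0 to 0.291 and 0 to 1.02 FPKM. Stfa2l1 was listed at 0 in all 3 Co HF-SC libraries and in 2 of 3 Co b-KC libraries, with 0.104 FPKM, or 1 implied read, in the other one.

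In DKO* mice BC100530, Stfa3 and Stfa1 had 127 to 4482 FPKM over the 12 libraries of the 4 populations. BC100530 had 1737, 932 and 579 FPKM in GFP HF-SCs and 2248, 812 and 343 in Tom HF-SCs (mice 814, 815 and 817). In b-KCs it had 2961, 2440 and 836 FPKM for GFP and 4482, 3208 and 1131 for Tom. Each DKO* library was above each Co library of its cell type by a wide margin. Stfa3 had 1567, 947 and 484 FPKM in GFP HF-SCs, 1347, 440.4 and 127 in Tom HF-SCs, 3206, 2780 and 618 in GFP b-KCs and 2876, 2032 and 471 in Tom b-KCs. Stfa1 had 1064, 542 and 516 FPKM in GFP HF-SCs, 819, 211 and 160.2 in Tom HF-SCs, 1729, 1323 and 496 in GFP b-KCs and 1521, 849 and 510.4 in Tom b-KCs. Mouse 817 had the lowest value in 18 of the 20 combinations of a stefin A gene and a DKO* population.

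The ratio of the mean FPKM in DKO* cells to that in Co was 522 for Stfa1, 302 for BC100530 and 201 for Stfa3 in GFP HF-SCs, and 293, 317 and 129 in Tom HF-SCs. In GFP b-KCs it was 160 for Stfa1, 89.3 for BC100530 and 170.3 for Stfa3, and in Tom b-KCs 129.6, 126 and 139. Without mouse 814 the ratios in Tom HF-SCs were 137 for Stfa1, 161 for BC100530 and 57.1 for Stfa3, and without mouse 810, a control, those of Stfa1 were 281 in GFP b-KCs and 228 in Tom b-KCs. On the log2(FPKM + 1) scale, which understates the change of low genes, the difference of Stfa3 was 7.26 ± 0.84 (SE) in GFP HF-SCs, 6.18 ± 0.84 in Tom HF-SCs, 7.15 ± 0.84 in GFP b-KCs and 6.81 ± 0.84 in Tom b-KCs. The median difference of all 12751 genes tested was between -0.05 and -0.02 in these comparisons. All 5 stefin A genes had each of their 3 DKO* libraries above each Co library in all 4 populations, and so did 24.7% of the tested genes in GFP HF-SCs, 24.4% in Tom HF-SCs, 28.0% in GFP b-KCs and 31.6% in Tom b-KCs. Other cell markers moved in the same comparisons. Of 7 suprabasal markers, 3 passed as higher in GFP HF-SCs (Ivl by 3.03, Krt1 by 2.84 and Krtdap by 1.84), 3 as higher and 2 as lower in Tom HF-SCs, and 3 as lower in GFP b-KCs and in Tom b-KCs, leaving out Flg2, which was tested through its Co libraries (limma). Of all tested genes, 18.5% passed as higher and 20.0% as lower in GFP HF-SCs, 22.3% and 22.1% in Tom HF-SCs, 20.3% and 21.3% in GFP b-KCs, and 22.6% and 23.3% in Tom b-KCs. Leaving out Cdh5 and Kdr, which entered the test only with Tom libraries, 5 of 6 endothelial markers passed as lower in GFP HF-SCs, 6 as higher in Tom HF-SCs and 1 as higher in each b-KC population. Their part in the stefin A levels was not tested. The counts of the 5 stefin A genes follow from the way the genes were chosen, and the GFP and Tom comparisons of a cell type share their Co libraries. In the bulk RNA of sorted cells, fewer cells of a type and less RNA per cell cannot be told apart.

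**Figure D1:**
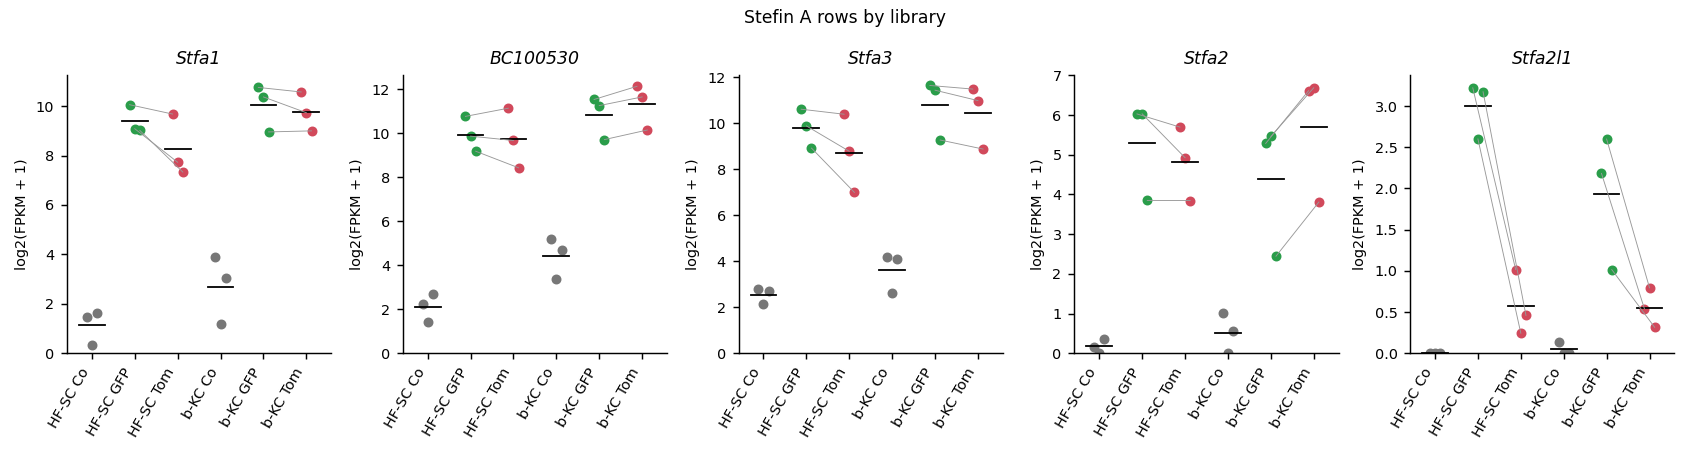
Level of each stefin A gene as log2(FPKM + 1) in the 18 libraries, by group, with a separate vertical scale in each panel. Points are libraries (gray Co, green GFP, red Tom), black bars are group means and thin lines join the GFP and Tom libraries of 1 mouse. Stfa2l1 stands apart from the other panels, since its Tom libraries (0.184 to 1.02 FPKM) sit near Co and, within each cell type, below its GFP libraries (1.02 to 8.33 FPKM).

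The rarer pair of genes behaved less alike. Stfa2 had 64.3, 64.4 and 13.4 FPKM in GFP HF-SCs and 50.9, 29.4 and 13.4 in Tom HF-SCs. In b-KCs the order was turned, with 38, 43.1 and 4.45 FPKM for GFP and 96.9, 102 and 13 for Tom, so that Tom exceeded GFP in all 3 mice. Stfa2l1 had 8.33, 5.07 and 8.03 FPKM in GFP HF-SCs against 1.02, 0.184 and 0.375 in Tom HF-SCs. In b-KCs it had 3.54, 5.06 and 1.02 FPKM for GFP against 0.456, 0.735 and 0.244 for Tom. Stfa2l1 has 1 annotated transcript, and these values correspond to 77, 47 and 79 implied reads in GFP HF-SCs, 7, 2 and 4 in Tom HF-SCs, 29, 42 and 9 in GFP b-KCs and 4, 6 and 2 in Tom b-KCs. With 3 reads worth 0.276 to 0.439 FPKM on this transcript, several Tom libraries were near the limit of detection, and this floor covers counting error only.

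The makeup of the stefin A transcripts was compared between the fractions. BC100530 made up 36.2% to 39.1% of the summed FPKM of the 5 genes in GFP HF-SCs and 50.3% to 54.4% in Tom HF-SCs. In b-KCs its share was 37% to 42.8% for GFP and 49.9% to 53.2% for Tom. The fractions did not overlap in either cell type. In Co its share was 31.6% to 40.8% in HF-SCs and 51.4% to 59.2% in b-KCs. Stfa1 and BC100530, whose reads can be exchanged, summed to 59.2% to 68.4% in GFP HF-SCs, 68.5% to 78.2% in Tom HF-SCs, 57.1% to 68.1% in GFP b-KCs and 65.5% to 77.2% in Tom b-KCs, so the fractions overlapped in b-KCs and nearly met in HF-SCs. The ratio of Stfa1 to BC100530 was 0.613, 0.582 and 0.892 in GFP HF-SCs and 0.364, 0.26 and 0.467 in Tom HF-SCs. It was 0.584, 0.542 and 0.593 in GFP b-KCs and 0.339, 0.265 and 0.451 in Tom b-KCs, so it was higher in GFP than in Tom within each mouse. Shares of a sum depend on each other, and these shares were not tested.

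**Figure D2:**
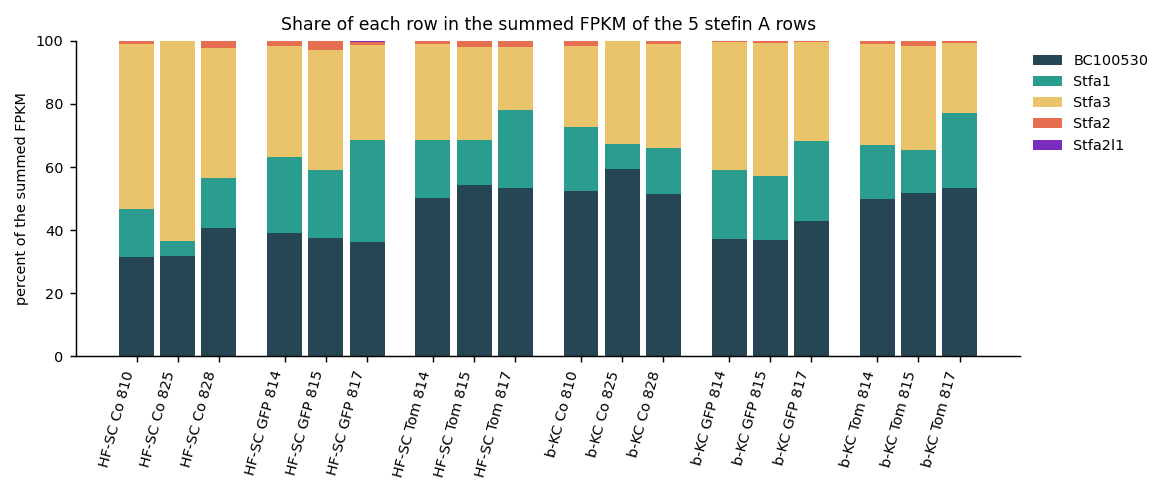
Share of each stefin A gene in the summed FPKM of the 5 genes, 1 bar per library, in percent. BC100530 (bottom) takes 36.2% to 42.8% in the 6 GFP libraries and 49.9% to 54.4% in the 6 Tom libraries. The bars of Co HF-SCs rest on sums of 5.33 to 13.2 FPKM, those of the DKO* libraries on 644 to 8976 FPKM.

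The stretches of the promoters are shown because 4 of the 5 stefin A genes have one in the RefSeq-based table (GRCm38.p6, 130 bases before to 20 after the start), with the motif TTTAAA in capitals. BC100530 had no entry.
Stfa1 (chr16:36277018-36277167, plus): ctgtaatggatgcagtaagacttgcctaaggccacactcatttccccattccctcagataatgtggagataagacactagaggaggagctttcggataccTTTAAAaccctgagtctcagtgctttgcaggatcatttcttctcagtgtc
Stfa2 (chr16:36408344-36408493, minus): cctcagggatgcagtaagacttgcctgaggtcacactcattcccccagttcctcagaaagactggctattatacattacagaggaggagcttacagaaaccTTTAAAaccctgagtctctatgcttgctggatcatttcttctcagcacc
Stfa2l1 (chr16:36156681-36156830, plus): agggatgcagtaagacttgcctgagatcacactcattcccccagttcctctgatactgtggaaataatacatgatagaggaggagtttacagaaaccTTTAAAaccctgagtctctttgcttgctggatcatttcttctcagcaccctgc
Stfa3 (chr16:36455373-36455522, minus): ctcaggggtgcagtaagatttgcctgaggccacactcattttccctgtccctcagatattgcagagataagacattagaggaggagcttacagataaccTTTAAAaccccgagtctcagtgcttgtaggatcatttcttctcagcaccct

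Over the whole windows of 300 bases (250 before and 50 after the start), Stfa2 and Stfa2l1 were 91.7% identical and the other pairs 80.0% to 82.0%. TTTAAA began 29 to 33 bases before the start in all 4, and 13.2% of 32851 promoter windows held it. The AP-1 motif TGANTCA, searched on both strands like the others, was found in Stfa3 only, 30 bases after the start, against 7.8% of all windows. C/EBP sites (TTNNGNAA, 40.7% of all windows) were found once in Stfa1, Stfa2 and Stfa2l1, and STAT sites (TTCNNNGAA, 8.3%) in none of the 4. Of the other members, Cst3 had 1 window and Fetub had 2, and 1 window of Fetub held TATAAA 31 bases before the start (13.6% of all windows). A match is a description of letters and not of a bound site.

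Whether mutant cells differed from their non-mutant neighbours was tested by GFP against Tom. The test covered the 8 members other than Fetub, which had been picked for its level in GFP cells. Both fractions came from the same mice, but the main fit compared group means without the mouse and so did not use this pairing. Cst6 was higher in GFP in both cell types, and none of the others passed, Stfa2l1 aside. Of all tested genes, 2.83% were higher and 5.80% lower in GFP HF-SCs, and 1.19% were higher and 0.518% lower in GFP b-KCs. Stfa2l1 reached 1 FPKM, the level required in 3 libraries for a gene to be tested, in 6 of 6 GFP, 1 of 6 Tom and 0 of 6 Co libraries. It thus entered the test through the GFP libraries in which it was high, so it is left out of this count and its p is given from a fit with no filter on low values. The test was limma on log2(FPKM + 1) with Benjamini-Hochberg adjustment over all tested genes, passed at an adjusted p under 0.05.

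For Stfa2l1 the log2 difference in HF-SCs was 2.43 ± 0.31 (SE, n = 3 mice), that in b-KCs 1.38 ± 0.31, and GFP exceeded Tom in 6 of 6 pairs of libraries. With no filter on low values the adjusted p was 0.000184 in HF-SCs and 0.0581 in b-KCs (limma). Reads of Stfa2l1 and Stfa2 can be exchanged, and the sum of both rows ran in opposite directions in the 2 cell types. It was 72.6, 69.5 and 21.4 FPKM in GFP HF-SCs against 51.9, 29.6 and 13.8 in Tom HF-SCs, and 41.5, 48.1 and 5.47 in GFP b-KCs against 97.4, 103 and 13.3 in Tom b-KCs. Its near-identical partner Stfa2 did not follow it. Stfa2 differed by 0.48 ± 0.85 in HF-SCs (adjusted p = 0.8, limma) and by -1.31 ± 0.85 in b-KCs (adjusted p = 0.679), and the b-KC difference passed with the mouse as a fixed block (adjusted p = 0.0122) and without mouse 817 (-1.28, adjusted p = 0.0139, limma).

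Cst6 encodes cystatin M/E, a secreted inhibitor of legumain and of cathepsins in the upper epidermis. It had 26.4, 20.4 and 9.58 FPKM in GFP HF-SCs against 4.12, 5.09 and 5.33 in Tom HF-SCs (mice 814, 815 and 817). In b-KCs it had 54.1, 65.5 and 19.7 FPKM for GFP against 7.55, 13 and 6.98 for Tom. The fractions did not overlap in either cell type, and mouse 817 showed the smallest gap in both. The difference was 1.66 ± 0.41 in HF-SCs (95% interval 0.78 to 2.54, adjusted p = 0.0181, limma) and 2.10 ± 0.41 in b-KCs (1.22 to 2.99, adjusted p = 0.0169, limma). Without mouse 814 the HF-SC difference was 1.28 and the b-KC difference 1.81, and neither passed (adjusted p = 0.283 and 0.256, limma). Without mouse 815 they were 1.58 and 2.03 (adjusted p = 0.174 and 0.255), and with only the 2 groups compared the same differences had an adjusted p of 0.058 and 0.162. With the mouse as a fixed block, the adjusted p in HF-SCs was 0.0523.

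Co libraries had 8.17 to 14 FPKM of Cst6 in HF-SCs and 41.3 to 82.1 in b-KCs. Tom libraries therefore lay below all Co libraries in both cell types, with a difference of -1.07 ± 0.41 in HF-SCs and -2.51 ± 0.41 in b-KCs. The share of all tested genes that lay below Co in this way was not counted. Suprabasal keratinocyte markers moved in the same comparisons, not all in 1 direction. In Tom b-KCs Sbsn (-1.84), Krt10 (-1.90) and Lor (-3.41) passed as lower than Co and none of the 7 as higher. Krt1 (0.26), Ivl (-0.70) and Krtdap (a mean of 3354 FPKM against 3321 in Co) did not pass there. Flg2 also passed, but it reached 1 FPKM in 4 of 6 Co and 0 of 6 Tom libraries and so entered the test through Co, which makes its call no support. In Tom HF-SCs 2 passed as lower, Sbsn by -0.95 and Lor by -1.56. Another 3 passed as higher there, Krt1 (2.27), Ivl (1.20) and Krtdap (a mean of 1158 FPKM against 428 in Co). In GFP b-KCs, as in Tom b-KCs, 4 of the 7 passed as lower, Flg2 among them. The part of these markers in the Cst6 levels was not tested. The GFP libraries of Cst6 overlapped Co in both cell types. Cst6 was thus the only member whose mean in Tom cells was below Co by more than 1 on the log2 scale in both cell types.

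Markers of other cell states moved in the same comparisons. The 8 endothelial markers summed to 428 to 1425 FPKM in Tom HF-SCs and to 1.63 to 29.6 in GFP HF-SCs, and the 6 other than Cdh5 and Kdr, which reached 1 FPKM in 0 of 6 GFP libraries, all passed as lower in GFP. Their part in the HF-SC differences was not tested. In b-KCs they summed to 1.55 to 6.52 FPKM in GFP and 4.87 to 10 in Tom, and 0 of 8 passed, with 0 at an unadjusted p under 0.05 (limma). Of 7 suprabasal keratinocyte markers, 2 were higher in GFP HF-SCs than in Tom, Sbsn by 0.91 (adjusted p = 0.0374, limma) and Ivl by 1.84 (adjusted p = 0.0167), the latter named after its values were seen. In b-KCs 0 of 7 passed in limma, with 2 at an unadjusted p under 0.05. Sbsn differed there by 1.04 ± 0.26 (adjusted p = 0.0527, limma), with 110.5 to 181 FPKM in GFP and 58.5 to 97 in Tom, so the fractions did not overlap. The summed suprabasal level was 4904 to 6928 FPKM in GFP b-KCs and 3883 to 6984 in Tom b-KCs. The part of these cells in the Cst6 differences was not tested.

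**Figure D3:**
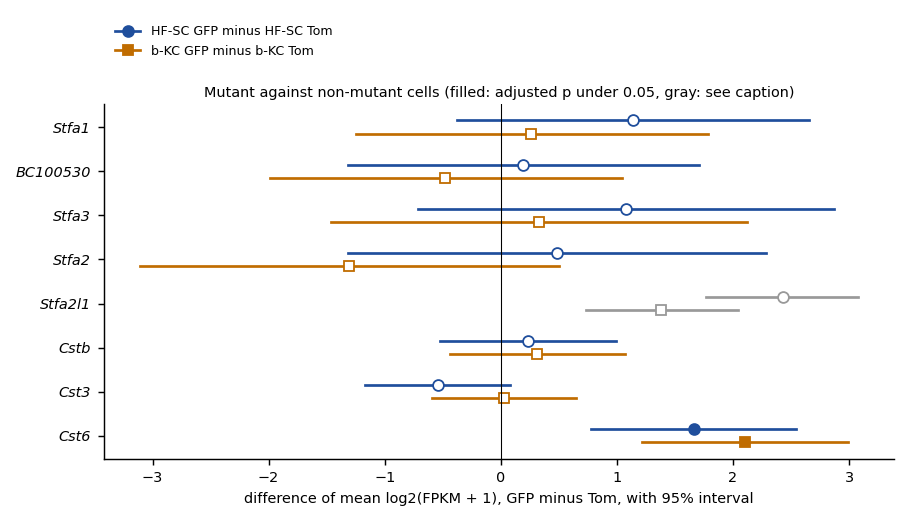
Difference of mean log2(FPKM + 1) between GFP and Tom for the 8 members tested, with 95% intervals, in HF-SCs (blue circles) and b-KCs (orange squares). Filled symbols passed at an adjusted p under 0.05, which Cst6 (1.66 and 2.10) did in both cell types. Gray symbols mark Stfa2l1 (2.43 and 1.38), whose entry into the test depended on its GFP libraries.

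The other members tested did not pass in either cell type in the fit over all libraries. Stfa1 differed by 1.14 in HF-SCs (95% interval -0.38 to 2.65, adjusted p = 0.416, limma) and by 0.26 in b-KCs (-1.25 to 1.78). BC100530 differed by 0.19 (-1.32 to 1.71) and -0.48 (-1.99 to 1.04), and Stfa3 by 1.08 (-0.71 to 2.87) and 0.33 (-1.46 to 2.12). These intervals come from a fit without the mouse, and the 3 mice differed several-fold within a population. Within pairs of 1 mouse, Stfa3 was higher in GFP in 6 of 6 pairs, and BC100530 was lower in GFP in 3 of 3 b-KC pairs. Cstb differed by 0.23 (-0.52 to 0.99) and 0.31 (-0.44 to 1.07), and was higher in GFP in 6 of 6 pairs. Cst3 differed by -0.54 (-1.17 to 0.08, adjusted p = 0.336, limma) and 0.03 (-0.59 to 0.65), and without mouse 817 the HF-SC difference of -0.78 passed (adjusted p = 0.015, limma).

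Cstb, the gene of cystatin B, is the intracellular inhibitor that nearly every cell makes. It had 144, 107 and 129.9 FPKM in Co HF-SCs, 399, 267 and 175 in GFP HF-SCs and 311, 246 and 150.1 in Tom HF-SCs. In b-KCs it had 337, 295 and 305 FPKM for Co, 723, 694 and 312 for GFP and 468, 563 and 310.4 for Tom. The DKO* libraries lay above all Co libraries in HF-SCs, while in b-KCs those of mouse 817 lay within the Co range. The ratio of means to Co was 2.21 in GFP HF-SCs, 1.86 in Tom HF-SCs, 1.84 in GFP b-KCs and 1.43 in Tom b-KCs.

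Cst3, the gene of the secreted cystatin C, was abundant in every group, and its mean in GFP cells was below Co. It had 464, 391 and 484 FPKM in Co HF-SCs, 386, 274 and 218 in GFP HF-SCs and 617, 509 and 227 in Tom HF-SCs. In b-KCs it had 733, 700 and 694 FPKM for Co, 598, 574 and 467 for GFP and 449, 597 and 561 for Tom. All GFP libraries lay below all Co libraries in both cell types, with ratios of means of 0.656 in HF-SCs and 0.771 in b-KCs. The Tom b-KC libraries also lay below all Co b-KC libraries (0.756), and Tom HF-SCs overlapped Co. How many of all tested genes lay below Co in this way was not counted. Above Co lay 24.7% in GFP HF-SCs, 28.0% in GFP b-KCs and 31.6% in Tom b-KCs.

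Fetub was at most 7.95 FPKM in every library. It had 0.162, 0.2 and 0.272 FPKM in Co HF-SCs, 4.84, 3.89 and 2.01 in GFP HF-SCs and 1.18, 0.796 and 1.27 in Tom HF-SCs. In b-KCs it had 1.52, 1.11 and 1.38 FPKM for Co, 7.95, 6.61 and 3.40 for GFP and 3.68, 2.40 and 2.61 for Tom. All DKO* libraries lay above the Co libraries of their cell type, and Tom lay between Co and GFP in mean. Within a mouse, GFP exceeded Tom by a factor of 4.09, 4.89 and 1.58 in HF-SCs and 2.16, 2.75 and 1.30 in b-KCs (mice 814, 815 and 817). This ordering is part of what Fetub was picked for and was not tested.

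**Figure D4:**
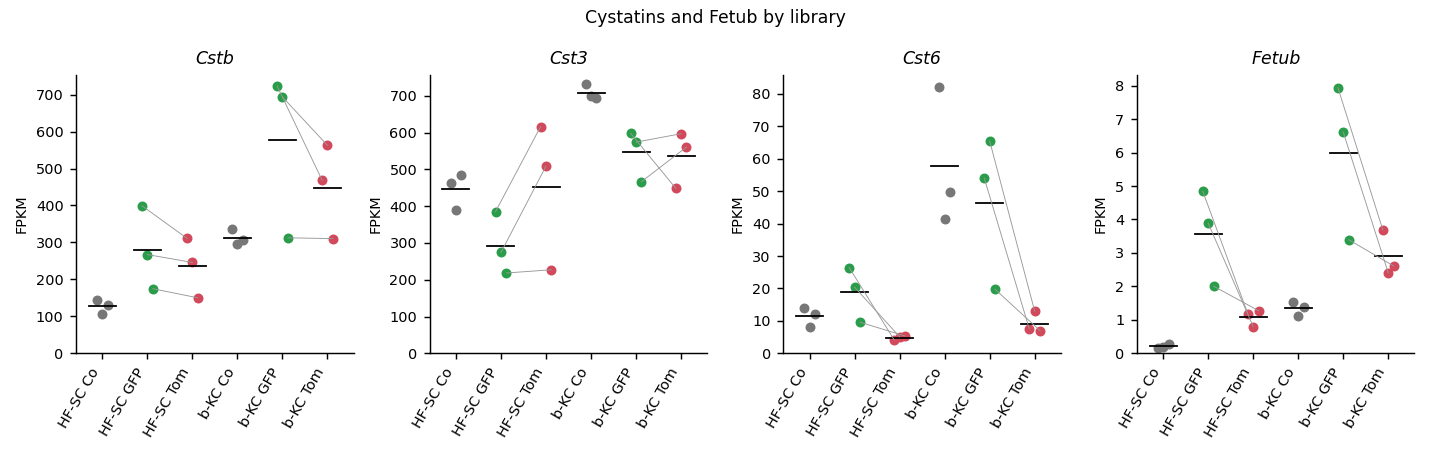
FPKM of Cstb, Cst3, Cst6 and Fetub in the 18 libraries, on linear axes that start at 0 and differ between panels. Points are libraries (gray Co, green GFP, red Tom), black bars are group means and thin lines join the fractions of 1 mouse. Cst6 is lower in Tom than in GFP in all 6 pairs, and Cst3 is highest in Co b-KCs (694 to 733 FPKM).

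The resting levels of bulge cells and basal keratinocytes were compared in Co mice, a contrast not used in choosing the genes. All 9 members had a lower mean in Co HF-SCs, but those of Stfa2l1 (0 against 0.0347 FPKM) and Stfa2 (0.135 against 0.494 FPKM) were very low. The share of all tested genes with a lower mean was not counted, and their median difference was -0.06. Of the 9 members, 4 passed as lower, while 27.3% of all tested genes passed as lower and 24.6% as higher. The 4 genes were BC100530 (-2.31 ± 0.71, adjusted p = 0.0129, limma), Cst6 (-2.21 ± 0.41, adjusted p = 0.000387), Cstb (-1.30 ± 0.35, adjusted p = 0.00622) and Fetub (-0.95 ± 0.25, adjusted p = 0.00537). Stfa1 (-1.56 ± 0.71, adjusted p = 0.0776, limma) and Cst3 (-0.67 ± 0.29, adjusted p = 0.0666) did not pass. With the mouse as a random block both did (adjusted p = 0.0166 and 0.0287, limma), giving 6 members, and a fixed block gave 7 with Stfa3 (adjusted p = 0.00191). The share of 27.3% is from the fit without a block. Shares of all tested genes under the alternatives were not counted. Without mouse 810 the count fell to 2, with BC100530 (adjusted p = 0.0984, limma) and Fetub (adjusted p = 0.0531) lost, without mouse 825 Cstb was lost (-1.23, adjusted p = 0.0505), and without mouse 817 the count rose to 7. Suprabasal markers moved with these genes. Their sum was 765 to 978 FPKM in Co HF-SCs and 6942 to 8636 in Co b-KCs, and all 7 passed as lower in HF-SCs. Flg2 among them reached 1 FPKM in 4 of 6 Co, 1 of 6 GFP and 0 of 6 Tom libraries. It thus entered the test through Co, which makes its call no support. The part of these markers in the difference was not tested.

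Put in order of mean log2(FPKM + 1), the levels of Stfa1 and Stfa3 ran from GFP b-KCs over Tom b-KCs, GFP HF-SCs and Tom HF-SCs to Co b-KCs and Co HF-SCs. Of the groups next to each other in that order, only Tom HF-SCs and Co b-KCs did not overlap, for both genes. Cst6 ran from Co b-KCs over GFP b-KCs, GFP HF-SCs, Co HF-SCs and Tom b-KCs to Tom HF-SCs, and only the last pair of neighbours did not overlap. The change against Co in HF-SCs minus that in b-KCs, on the log2 scale, was 0.12 in GFP and -0.63 in Tom for Stfa3, 1.42 and 0.75 for BC100530, 0.92 and 0.04 for Stfa1, 1.25 and -0.53 for Stfa2, and 1.11 and 0.07 for Stfa2l1, so its direction differed between the genes in Tom cells.

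The stefin A cluster holds further genes beyond the members. Of 8 symbols listed, 5 were in the table and 4 reached the level for a test. Gm5416 had 119 to 168 FPKM in GFP HF-SCs, 29.6 to 95.6 in Tom HF-SCs and 0 to 0.14 in Co HF-SCs. Its level in b-KCs was 30.5 to 145 FPKM for GFP, 44.2 to 102 for Tom and 0.15 to 1.76 for Co. BC117090 had 10.4 to 23.7 FPKM in GFP HF-SCs, 6.21 to 18.4 in Tom HF-SCs, 7.90 to 24.7 in GFP b-KCs, 9.53 to 32.8 in Tom b-KCs and at most 0.668 in Co. All DKO* libraries of both genes lay above the Co libraries of their cell type. BC117090 and 2010005H15Rik reached 1 FPKM in 0 of 6 Co libraries, Gm5416 in 1 and Csta1 in 2, so these genes were tested because of their DKO* libraries, and their differences from Co are given as levels with no test. Csta1 reached 1 FPKM in 6 of 6 GFP and 6 of 6 Tom libraries. With 14 to 41.6 FPKM in GFP HF-SCs and 3.72 to 11.3 in Tom HF-SCs, it was higher in GFP in HF-SCs (1.92, adjusted p = 0.0432, limma) and in 3 of 3 mice in b-KCs, where it did not pass (0.91, adjusted p = 0.645). Of the 4 genes tested, 1 passed between GFP and Tom in HF-SCs and 0 in b-KCs. Of all tested genes, 2.83% were higher and 5.80% lower in GFP HF-SCs, and 1.19% and 0.518% in GFP b-KCs. The rarer 2010005H15Rik ran the other way. Its means were 0.673 FPKM in GFP and 1.17 in Tom HF-SCs, and 0.283 in GFP and 1.11 in Tom b-KCs. Of 12 further cystatin superfamily genes in the table, none reached 1 FPKM in 3 libraries.

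Papain-type cathepsins are the proteases that stefins and cystatins hold in check. Of 10 listed genes, 9 were tested. In GFP HF-SCs 3 were higher and 1 lower than Co, in Tom HF-SCs 4 and 1, in GFP b-KCs 4 and 1, and in Tom b-KCs 4 and 1. Ctss, one of those higher in both HF-SC populations, and Ctsk, one of those higher in Tom HF-SCs, reached 1 FPKM in 0 and 2 of 6 Co libraries and entered the test only with DKO* libraries, so their calls there are no support, and without them 2 were higher in each HF-SC population. Of all tested genes, 18.5%, 22.3%, 20.3% and 22.6% were higher and 20.0%, 22.1%, 21.3% and 23.3% lower in the same order. The median cathepsin difference was 0.08, 0.26, 0.34 and 0.40 in the same order. Leaving out mouse 817 raised the total in Tom HF-SCs from 5 to 8, and leaving out mouse 815 lowered those in GFP b-KCs and in Tom b-KCs from 5 to 3.

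Ctsc, the gene of cathepsin C, which activates serine proteases of granules, had the largest difference of the 9 in HF-SCs, and Ctsz in b-KCs. It had 5.39, 6.43 and 4.47 FPKM in Co HF-SCs, 136, 97.3 and 66.5 in GFP HF-SCs and 84.8, 62.2 and 48.8 in Tom HF-SCs, a difference of 3.92 ± 0.44 for GFP (adjusted p = 6.58e-06, limma) and 3.34 ± 0.44 for Tom (adjusted p = 2.38e-05). In b-KCs it rose by 1.56 ± 0.44 for GFP (adjusted p = 0.0114) and 1.45 ± 0.44 for Tom (adjusted p = 0.0146), from a mean of 40 FPKM for Co. Ctsh, the gene of the aminopeptidase cathepsin H, rose by 1.17 to 1.91 in all 4 populations. Ctsz rose in b-KCs by 2.56 ± 0.30 in GFP (adjusted p = 2.2e-05, limma) and 1.67 ± 0.30 in Tom (adjusted p = 0.00042), and differed by -0.01 and 0.13 in HF-SCs, where it had a mean of 40.8 FPKM in Co. Ctsf fell by 0.85, 1.17, 1.11 and 1.63 in GFP HF-SCs, Tom HF-SCs, GFP b-KCs and Tom b-KCs. Between GFP and Tom, 0 of 9 cathepsins passed in limma in either cell type, with 0 at an unadjusted p under 0.05 in HF-SCs and 2 in b-KCs.

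**Figure D5:**
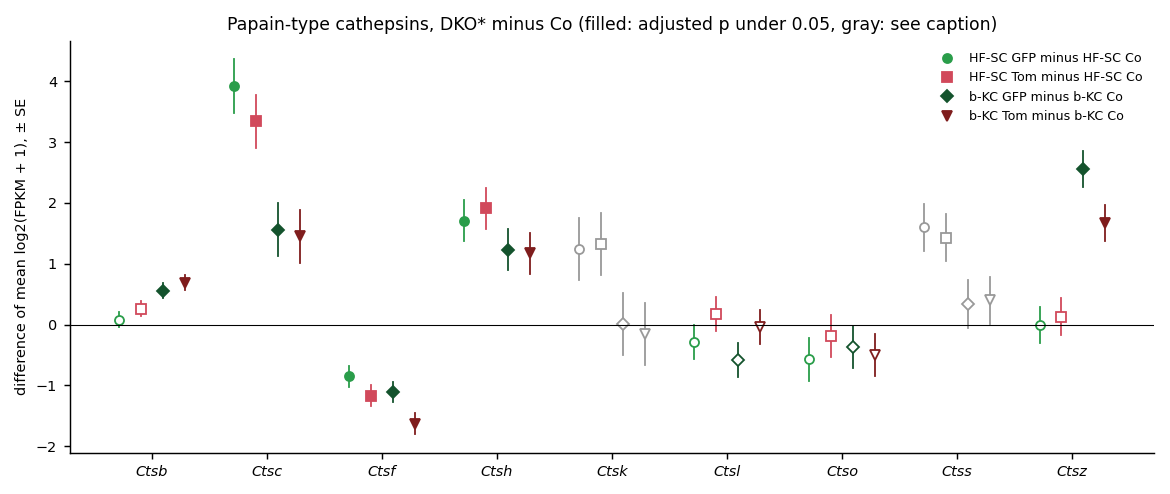
Difference of mean log2(FPKM + 1) from Co (± SE) for the 9 papain-type cathepsins tested, in the 4 DKO* populations. Filled symbols passed at an adjusted p under 0.05. Ctsc (1.45 to 3.92) and Ctsh (1.17 to 1.91) are above 0 in all 4 populations, Ctsf is below 0 in all 4, and Ctsz passed in both b-KC populations and in neither HF-SC population. Ctsk and Ctss, which entered the test only with DKO* libraries, are drawn in gray.

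Of 7 genes of legumain, aspartic cathepsins and calpains, 5 were tested, of which 1 was higher in GFP HF-SCs, 1 higher and 1 lower in Tom HF-SCs, and 3 higher in both GFP b-KCs and Tom b-KCs. The HF-SC counts of 1 in 5 are near the shares of all tested genes given for the cathepsins (18.5% and 22.3% higher). Lgmn, the gene of legumain, rose in Tom HF-SCs (1.39 ± 0.29, adjusted p = 0.00137, limma) and Tom b-KCs (0.98 ± 0.29, adjusted p = 0.0128), and its differences were 0.15 and 0.53 in the GFP populations. The endothelial markers given above passed as higher in Tom HF-SCs too, with 1 of 8 in Tom b-KCs (limma). Their part in the Lgmn changes was not tested. Capn2, a calpain subunit, rose by 2.12 ± 0.16 in GFP b-KCs (adjusted p = 5.72e-07) and by 2.22 ± 0.16 in Tom b-KCs (adjusted p = 2.13e-07), and its small subunit gene Capns1 by 1.12 and 1.18. Ctsd, the gene of the aspartic protease cathepsin D, rose by 1.06 in GFP HF-SCs (adjusted p = 0.00363, limma) and 0.87 in GFP b-KCs (adjusted p = 0.0127).

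Transglutaminases cross-link stefin A and other proteins into the cornified envelope. Of 5 genes, 4 were tested, with 2 higher and 2 lower in GFP HF-SCs, 3 higher and 1 lower in Tom HF-SCs, 1 and 1 in GFP b-KCs, and 1 and 0 in Tom b-KCs. The b-KC counts are near the shares of all tested genes (20.3% higher and 21.3% lower in GFP, 22.6% and 23.3% in Tom). In HF-SCs those shares were 18.5% higher and 20.0% lower in GFP, and 22.3% and 22.1% in Tom. Tgm1, which builds the envelope, was higher than Co in all 4 populations, from a mean of 1.84 to 31 FPKM in GFP HF-SCs (3.48 ± 0.51, adjusted p = 8.12e-05, limma) and from 6.36 to 18 FPKM in Tom b-KCs (1.31 ± 0.51, adjusted p = 0.0484). Tgm3 rose in HF-SCs by 1.77 in GFP and 1.56 in Tom, and differed by -0.20 and 0.23 in b-KCs. The suprabasal markers Ivl (3.03), Krt1 (2.84) and Krtdap (1.84) also rose in GFP HF-SCs. In each b-KC population 0 of 7 suprabasal markers passed as higher (limma). Their part in the transglutaminase changes was not tested. Tgm5 fell by 1.58 and 1.90 in GFP and Tom HF-SCs. Tgm2 rose by 2.59 in Tom HF-SCs and fell by 0.98 in GFP HF-SCs, beside the endothelial markers given above, and by 0.75 in GFP b-KCs, where 0 of 8 endothelial markers passed as lower and 1 as higher (limma).

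Of 6 meprin and astacin metalloproteinases, the enzyme class that fetuin-B blocks, only Bmp1 and Tll1 were expressed enough to be tested. Tll1 fell by 1.36 ± 0.21 in GFP HF-SCs (adjusted p = 0.000105, limma), 1.32 ± 0.21 in GFP b-KCs (adjusted p = 0.000218) and 1.32 ± 0.21 in Tom b-KCs (adjusted p = 0.00013). In Tom HF-SCs it went the other way and did not pass (0.43 ± 0.21, adjusted p = 0.103, limma). Bmp1 rose in Tom HF-SCs (0.47 ± 0.18, adjusted p = 0.0414) and fell by 0.76 in GFP b-KCs (adjusted p = 0.00347).

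Neutrophils are known to express stefin A genes, and by the labels the sorted cells were CD45-. Ptprc, the gene of CD45, had at most 0.946 FPKM, in GFP HF-SCs of mouse 817. Of 12 neutrophil markers, 11 were in the table and only Cxcr2 was high enough to be tested, with 1.2 to 1.67 FPKM in Co and 4.22 to 10.3 in DKO* libraries, and it passed as higher in all 4 populations. The other 10 summed to 0.126 to 0.457 FPKM in Co, 0.823 to 3.09 in GFP HF-SCs, 1.63 to 3.34 in Tom HF-SCs, 1.40 to 2.57 in GFP b-KCs and 0.191 to 1.25 in Tom b-KCs. Elane was at 0 in all libraries of Tom HF-SCs, GFP b-KCs and Tom b-KCs, and also in all of Co b-KCs. Retnlg, Trem1 and Fpr1 were at 0 in all Co libraries and had a mean above 0 in each DKO* population. The highest of their values was 2.19 FPKM, for Retnlg in Tom HF-SCs. The 10 leukocyte markers summed to 1.07 to 5.23 FPKM in Co, 7.57 to 35.8 in GFP HF-SCs, 12.9 to 25.1 in Tom HF-SCs, 4.69 to 5.70 in GFP b-KCs and 1.78 to 4.55 in Tom b-KCs. Itgam, Tyrobp, Fcer1g and Cd52 reached 1 FPKM in 0 of 6 Co libraries, so these markers could enter a test only through DKO* libraries, and they are given by their sums. The Tom b-KC library of mouse 814, with the highest sum of the 5 stefin A genes (8976 FPKM), had 2.43 FPKM of these 20 markers, the lowest sum among the 12 DKO* libraries, and 10.3 FPKM of Cxcr2, the highest of all libraries. With Cxcr2 added its sum was 12.7 FPKM, and that of the Tom b-KC library of mouse 815 was lower, 10.8 FPKM.

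Of 5 Langerhans cell markers, Cd74 and the 3 MHC class II genes passed as higher in all 4 populations, and the list summed to 6.37 to 14.4 FPKM in Co and 153 to 1482 in DKO* libraries. The defining gene Cd207 had 0.113 to 0.595 FPKM in Co and 0.165 to 1.07 in DKO* libraries. Of 6 basal keratinocyte markers, 1, 2, 2 and 2 were lower and none higher in GFP HF-SCs, Tom HF-SCs, GFP b-KCs and Tom b-KCs, and of 7 bulge markers 3, 5, 1 and 4 were lower and none higher, where 20.0%, 22.1%, 21.3% and 23.3% of all tested genes were lower. One of the basal calls in Tom b-KCs is Krt14, which was listed at 0 in 2 of the 3 libraries, and such a 0 can be a failed estimate. Their part in the stefin A levels was not tested.

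The genes whose pattern was most like that of the members were ranked by Pearson r of log2(FPKM + 1) over the 18 libraries, which share the large step between Co and DKO*. For BC100530, the stefin A gene with the highest mean, they were 2610528A11Rik (r = 0.988), Krt6b (r = 0.981), S100a9, Il1f9 and Gsdmc (r = 0.980 each). Krt6b encodes a keratin of activated keratinocytes, S100a9 a calcium-binding alarmin and Il1f9 an IL-1 family cytokine. Among the members, Stfa1 (r = 0.990) and Stfa3 (r = 0.987) were closest to BC100530, and Stfa2l1 was further off (r = 0.591). For Cst6 the closest were Krt79 (r = 0.962), Sbsn (r = 0.956), Cyp17a1 (r = 0.947) and Pdlim2 (r = 0.944), of which Sbsn encodes the suprabasal protein suprabasin. The other 6 suprabasal markers had r with Cst6 from 0.430 (Krt1) to 0.748 (Krt10). For Fetub they were Rgs20 (r = 0.963), Liph (r = 0.955), Orm1 (r = 0.952), Pinlyp (r = 0.950) and Fam3b (r = 0.948), of which Orm1 encodes a secreted acute phase protein. The r of Cst6 with BC100530 was -0.129.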

How the data were processed

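RNA was measured in 18 libraries (3 mice in each of 6 groups, by the sample labels). The authors made libraries without strand information with SMART-Seq v4 and Nextera XT, mapped single-end reads of 51 bases with TopHat2 2.0.10 and Bowtie 1.0.0 to NCBI37/mm9 (2 mismatches allowed), and deposited the FPKM values that Cufflinks 2.2.1 gave, normalized for transcript length and library size. Of 23951 genes, 12751 reached 1 FPKM in 3 or more libraries and were entered into limma 3.58.1 (R 4.3.3) on log2(FPKM + 1), a pseudocount of 1, with a mean per group, eBayes with a trend and Benjamini-Hochberg adjustment in each comparison. On simulated data for 1 comparison, the step was tested for recovery of known changes. Members and lists were chosen with earlier results of these data known, and members carry no p-value for DKO* against Co.

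Named genes are the 9 members, up to 4 genes of each protease or cluster list with the largest change among those that passed against Co, Jun, Junb, and the 5 genes most like BC100530, Cst6 and Fetub, of which 1 is not reported here. Marker genes are named as checks of cell type or beside results they moved with, and these, Ctsk and Ctss were chosen after their values were seen. The labels give the same mouse number to both fractions and to both cell types of an animal. Deviations from group means correlated between the paired libraries of a mouse with r from 0.08 to 0.69 across genes, so the mouse was also entered as a block (random over all libraries, correlation 0.274, or fixed in the groups compared). Other alternatives were a pseudocount of 0.1, no filter, only the groups compared, no trend, rescaled libraries, a stricter threshold (adjusted p under 0.01 and a log2 change of at least 2) and each mouse left out. The test of GFP against Tom between cell types and the look at the library with the fewest leukocyte transcripts were added after seeing the data. Depth was taken from FPKM steps of 7744 genes with 1 transcript, in which 75.7% to 80.6% of the low values were whole reads to within 0.1. Sequences were read from NCBIM37 with its GENCODE annotation and from a RefSeq promoter table (GRCm38.p6), which held 6 of the 9 members. Python 3.11.15 was used.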

Additional observations from a re-analysis of the deposited data

Results flagged for a closer look

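Stfa2 was higher in GFP than in Tom cells in 3 of 3 mice in HF-SCs (ratios of 1.26, 2.19 and 1.00) and lower in 3 of 3 mice in b-KCs (0.392, 0.422 and 0.342), which is why it is listed here. The difference of the log2 differences was 1.79 ± 1.20 (SE) and did not pass in limma without a mouse block (adjusted p = 0.665) or with the mouse as a random block (adjusted p = 0.276, unadjusted p = 0.0402). The HF-SC ratio of mouse 817 rests on 13.42 against 13.39 FPKM. For Stfa2l1, which shares 98.0% of its coding bases with Stfa2, the same difference was 1.04 ± 0.44 (adjusted p = 0.323, limma).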

How the results depend on the processing

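Counts of passed genes depended on the threshold and on single mice. Shares of all tested genes were counted only in the main fit at an adjusted p under 0.05. The counts under the alternatives given here therefore have no share to be set against. Counts of members include Stfa2l1, and those of cathepsins Ctsk and Ctss, which entered the test through the libraries in which they were high. At an adjusted p under 0.01 and a log2 difference of at least 2, cathepsins called against Co numbered 1 in GFP HF-SCs, 1 in Tom HF-SCs, 1 in GFP b-KCs and 0 in Tom b-KCs (limma), and members called numbered 1 for GFP against Tom in HF-SCs, 0 in b-KCs and 1 for Co HF-SCs against Co b-KCs. Fitting only the groups compared gave 1 member in HF-SCs and 0 in b-KCs for GFP against Tom, and no filter gave 1 in b-KCs. With a replicate block for the mouse (fixed), the members passed were 1 in HF-SCs and 3 in b-KCs for GFP against Tom and 7 for Co HF-SCs against Co b-KCs, beside 2, 2 and 4 without it, and the random block moved only the latter, to 6. Leaving out each mouse in turn gave 1 to 3 members in HF-SCs and 0 to 3 in b-KCs for GFP against Tom, 2 to 7 for the Co cells, and 4 to 6, 4 to 8, 3 to 7 and 3 to 6 cathepsins in GFP HF-SCs, Tom HF-SCs, GFP b-KCs and Tom b-KCs. Of 1477 tested values of single genes under an alternative, 1351 kept their direction and their side of the threshold, 17 changed sign without passing in either fit, 66 fell below the threshold, 43 newly passed and 0 that had passed reversed. As log2 ratios of mean FPKM in GFP to Tom, the 5 stefin A genes had a median of 0.30 in b-KCs and 0.65 in HF-SCs, and their summed FPKM gave -0.07 and 0.37. The causes were not tested. Depth limits Stfa2l1 in Tom cells, and near-identical reads limit every single stefin A value other than that of Stfa3.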
